A study of Mus musculus with 24 samples.

Results

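The cyclin-dependent kinase (CDK) inhibitor genes are 7 genes chosen by symbol from the 25239 genes of the expression table: the CIP/KIP genes Cdkn1a, Cdkn1b and Cdkn1c, and the INK4 genes Cdkn2a, Cdkn2b, Cdkn2c and Cdkn2d. Their RNA was measured in 24 libraries from 6 mouse small cell lung cancer (SCLC) lines, 3 of Type D (4711-1, 4711-18 and 4716-11) and 3 of Type V (4711-11, 4716-10 and 4716-14). Each line was grown from an individual lung tumour in which a Cre-expressing adenovirus with a CMV promoter had deleted Rb1 and Rbl2 and switched off Trp53 through the XTR gene trap, so every group, controls included, lacks RB and p130 function by design. In culture, 4-hydroxytamoxifen (4-OHT) activates a FlpO-ERT2 recombinase placed at Rosa26, which removes the trap and restores p53. After that, Type D lines lose viability, and Type V lines stay viable and stop dividing. The 4 conditions, each given for 72 h, were Control (ethanol vehicle), Control + CsA (cyclosporin A, an inhibitor of cyclophilins), Restored (4-OHT) and Restored + CsA, which gives 8 groups of 3 lines and 1 library per line and condition. A line stands for 1 tumour, and the sources used here do not say whether lines whose names begin alike came from the same mouse.

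CDK inhibitors hold the cell cycle by binding the kinases that drive it. INK4 proteins bind CDK4 and CDK6 and keep them from D-type cyclins, which prevents phosphorylation of the retinoblastoma protein RB. CIP/KIP proteins bind complexes of cyclin and CDK more broadly, with CDK2 as a main target. SCLC characteristically loses both RB and p53. Cdkn1a, which encodes p21, is a classical direct target of p53, and Cdkn2a makes a p53 activator, p19Arf, from the same locus as the CDK4/6 inhibitor p16Ink4a.

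The genes lie on 5 mouse chromosomes in the GRCm38 build (GENCODE M21). Cdkn1a (ENSMUSG00000023067) occupies chr17:29090976-29100727 on the plus strand, Cdkn1b chr6:134920401-134925513 on the plus strand and Cdkn1c chr7:143458339-143461050 on the minus strand. Cdkn2a at chr4:89274471-89294653 and Cdkn2b at chr4:89306299-89311039 are neighbours on the minus strand with 11645 bases between them, Cdkn2c lies elsewhere on that chromosome at chr4:109660876-109667189, minus strand, and Cdkn2d at chr9:21288410-21291407, minus strand. Unlike the other members, Cdkn2a makes 2 different proteins from 2 promoters and shared downstream exons, and the table gives it a single value, so p16Ink4a and p19Arf RNA cannot be told apart here.

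RefSeq promoter windows of GRCm38.p6, running from 250 bases before to 50 bases after an annotated start, were matched for 6 of the 7 genes and gave 9 windows. Of these, 4 are shown, namely the upstream start of Cdkn1a, the gene that rose most, both starts of Cdkn2a, and Cdkn2b. The difference of Cdkn2b on restoration, called in neither type, pointed in opposite directions in Type D and Type V lines. The downstream start of Cdkn1a, at chr17:29093519-29093818, held no p53 half-site or full site and is not shown. Capitals mark letters found in a search of both strands: the p53 response element, half-sites and full sites, in Cdkn1a; the E2F motif TTTCCCGC in Cdkn2a; and the cell cycle homology region (CHR) TTTGAA, read on either strand, in Cdkn2b. All are written 5′ to 3′ on the strand of the gene.
Cdkn1a, chr17:29090729-29091028, plus strand: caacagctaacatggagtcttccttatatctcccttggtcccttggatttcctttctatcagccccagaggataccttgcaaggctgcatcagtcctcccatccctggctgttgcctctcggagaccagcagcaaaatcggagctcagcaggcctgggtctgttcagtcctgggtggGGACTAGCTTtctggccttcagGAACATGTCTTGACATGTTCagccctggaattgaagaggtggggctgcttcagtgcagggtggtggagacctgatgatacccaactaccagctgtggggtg
Cdkn2a downstream start, chr4:89282143-89282442, minus strand: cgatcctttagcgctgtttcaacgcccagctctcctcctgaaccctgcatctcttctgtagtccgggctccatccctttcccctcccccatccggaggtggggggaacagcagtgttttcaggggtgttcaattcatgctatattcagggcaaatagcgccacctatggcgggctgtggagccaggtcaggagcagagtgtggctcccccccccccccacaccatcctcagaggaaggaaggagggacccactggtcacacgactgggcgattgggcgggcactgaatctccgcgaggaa
Cdkn2a upstream start, chr4:89294570-89294869, minus strand: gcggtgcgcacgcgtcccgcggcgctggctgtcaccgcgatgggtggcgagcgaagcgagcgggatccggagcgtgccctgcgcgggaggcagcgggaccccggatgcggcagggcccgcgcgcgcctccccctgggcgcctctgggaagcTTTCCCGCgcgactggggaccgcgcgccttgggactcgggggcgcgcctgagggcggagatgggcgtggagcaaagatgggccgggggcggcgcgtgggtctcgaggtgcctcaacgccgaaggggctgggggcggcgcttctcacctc
Cdkn2b, chr4:89310983-89311282, minus strand: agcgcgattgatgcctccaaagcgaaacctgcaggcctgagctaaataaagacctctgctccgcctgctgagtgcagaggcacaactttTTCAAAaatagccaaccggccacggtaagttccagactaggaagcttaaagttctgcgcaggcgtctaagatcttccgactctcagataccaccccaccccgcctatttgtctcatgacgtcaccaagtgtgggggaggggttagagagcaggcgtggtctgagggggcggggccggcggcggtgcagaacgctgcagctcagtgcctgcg

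The Cdkn1a window held a full p53 site with 1 mismatch to the consensus, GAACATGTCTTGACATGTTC at chr17:29090928-29090947, which begins 51 bases before the start site. A full site with at most 2 mismatches was present in 0.798% of the 32851 RefSeq windows, and this was the only one among the 9 windows of the members. The same Cdkn1a window held 2 half-site matches, the Cdkn2d window held 1, and 8.36% of all windows held at least 1. One of the 4 E2F motifs searched (TTTCCCGC, TTTGGCGC, TTTCGCGC and TTTGCCGC) was found in the upstream Cdkn2a window and in 2.26% of all windows, and the CHR of the Cdkn2b window was present in 17.9%. These are matches of letters within short windows and not measured binding.

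Expression is given as TPM, transcript abundance corrected for transcript length and scaled to a total of 1000000 per library, so levels of different genes can be compared within a library. Sequencing depth is unknown because TPM keeps no counts. Trp53 itself read 10.5 to 15.3 TPM in the 12 libraries without restoration and 181 to 253 TPM in the 12 with it, which matches the labels of all 24. Of 7 neuroendocrine markers, 4 reached 1 TPM in Type D and 4 in Type V lines, with summed levels of 5.50 to 27.1 and 16.2 to 84.6 TPM. Calca, Chga and Neurod1 were below 1 TPM throughout, so these defining markers of the labelled tumour type were absent or nearly so. The immune markers Ptprc and Cd3e and the endothelial markers Pecam1 and Cdh5 were below 1 TPM in all libraries. The third immune marker, Cd68, a lysosomal protein typical of macrophages, read 5.60 to 11.5 TPM without and 16.1 to 55.3 TPM with restored p53. It rose in all 4 restoration comparisons, by 1.95 (Type D) and 1.28 log2 (Type V) without CsA and by 1.96 and 1.39 log2 with it (limma adjusted p = 1.34e-04, 0.00766, 1.64e-04 and 0.00437), and its part in the results below was not tested. The 3 fibroblast markers summed to at most 1.89 TPM in Type D and to 4.76 to 432 TPM in Type V lines. They were unlike each other in Type V, with Col1a1 at 0.698 to 401 TPM, Dcn at 3.52 to 71.9 and Pdgfra at 0 to 3.37 (median 0.127). The sum therefore does not show that fibroblasts were present. In bulk RNA, fewer cells of a kind and less RNA per cell cannot be told apart.

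Without p53 the inhibitor RNA of these lines was mainly INK4 RNA. In Type D Control lines the mean levels ran from Cdkn2a at 934 ± 16.9 TPM (SD, n = 3 lines) through Cdkn2b at 175 ± 26.8, Cdkn1b at 119 ± 25.0, Cdkn1a at 109 ± 19.3, Cdkn2c at 43.6 ± 18.1 and Cdkn2d at 39.7 ± 1.84 to Cdkn1c at 0.377 ± 0.0129. The ranges over lines overlapped between Cdkn2b and Cdkn1b, between Cdkn1b and Cdkn1a and between Cdkn2c and Cdkn2d, so the order of these neighbours is not settled. Type V Control lines had the same first 3 genes, with Cdkn2a at 690 ± 141 TPM, Cdkn2b at 158 ± 87.4 and Cdkn1b at 95.9 ± 18.2. They were followed by Cdkn2c at 86.1 ± 25.1, Cdkn1a at 52.6 ± 17.7, Cdkn2d at 46.1 ± 9.14 and Cdkn1c at 0.540 ± 0.659. Below Cdkn2a, each of these neighbours down to Cdkn2d overlapped with the next. After restoration Cdkn1a came first in both types, followed by Cdkn2a and then Cdkn2b, whose range overlapped with that of Cdkn1b in Type V.

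**Figure D1:**
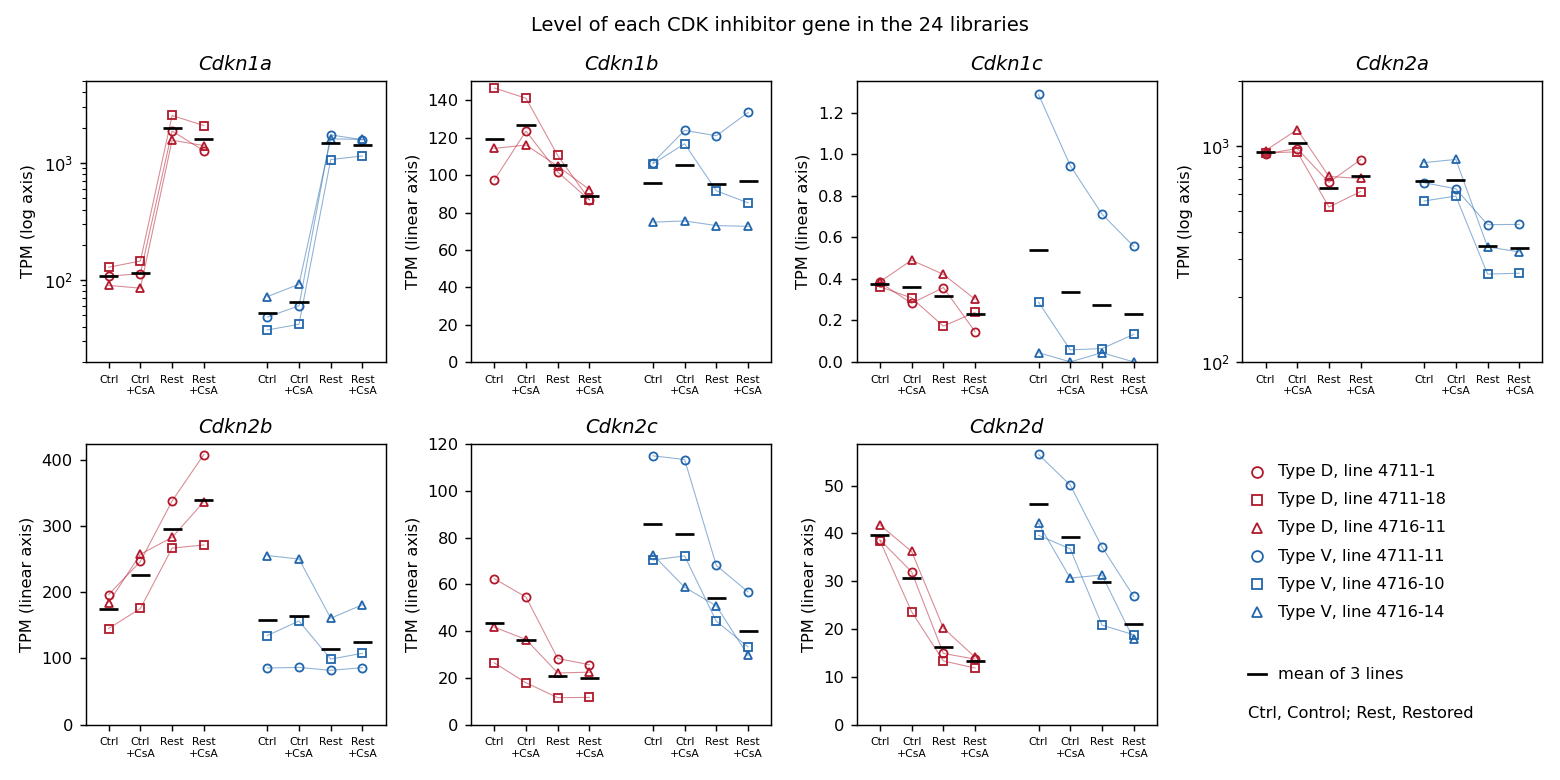
Expression of the 7 CDK inhibitor genes in TPM (vertical axes, log for Cdkn1a and Cdkn2a and linear for the others) in the 4 conditions, with Type D lines in red at the left of each panel and Type V lines in blue at the right. Each symbol is a library, thin lines join the libraries of a line, and black bars are means of 3 lines. Cdkn1a reads at most 145 TPM in the libraries without restored p53 and at least 1068 TPM in those with it.

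Differences between groups were tested with limma on log2(TPM + 1) over the 14104 genes with at least 1 TPM in at least 3 libraries, and a gene is called changed at an adjusted p under 0.05 with a difference of at least 1 on the log2 scale. Of the 7 members, 6 passed that filter and Cdkn1c did not. On restoration without CsA, 2 of the 6 were called in Type D, where 6.93% of all tested genes were called, and 2 of the 6 in Type V, where it was 5.29%. With CsA present, again 2 of 6 were called in Type D (5.41% of all genes) and 2 of 6 in Type V (4.61%). Cdkn1a was called in all 4 of these comparisons, Cdkn2d in both of Type D and Cdkn2a in both of Type V. The p-values rest on a spread pooled over the 8 groups of 3 lines. This fit treats the 4 libraries of a line as independent, so comparisons between the types count each line more than once. When the cell line, which the 4 libraries of a line share, was added to the fit as a block, 3 of 6 were called in Type D (11.2% of all genes) and 2 of 6 in Type V (8.66%). With CsA and the block these were 2 of 6 in Type D (9.69%) and 3 of 6 in Type V (7.97%). Where the block raised the count, the added gene was Cdkn2c. Ranges of 3 lines that do not overlap are given below as descriptions, and the share of all genes without overlap was not counted.

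Cdkn1a, whose product p21 inhibits cyclin-CDK2 complexes, read 108, 129 and 90.0 TPM in the Type D Control lines 4711-1, 4711-18 and 4716-11, and 1871, 2539.9 and 1563 TPM in the same lines after restoration. In the Type V lines 4711-11, 4716-10 and 4716-14 it went from 48.3, 37.5 and 72.1 TPM to 1734, 1068 and 1605 TPM. Every restored library stood far above every control library in both types. The rise was 4.17 log2 in Type D (SE 0.30, limma adjusted p = 3.46e-08) and 4.80 log2 in Type V (SE 0.30, limma adjusted p = 4.90e-09), or 17.4- to 19.8-fold in single Type D lines and 22.3- to 35.9-fold in single Type V lines. With CsA present throughout, Cdkn1a rose by 3.78 log2 in Type D, from 113, 145 and 85.2 TPM to 1271, 2082 and 1405 TPM (limma adjusted p = 1.59e-07). In Type V it rose by 4.51 log2, from 60.3, 41.9 and 92.0 TPM to 1575, 1146 and 1586 TPM (limma adjusted p = 1.46e-08). These 4 rises were called under each of the alternative settings tried.

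The starting level of Cdkn1a was higher in Type D. The 3 Type D Control lines all stood above the 3 Type V Control lines, with a difference of 1.07 log2 (SE 0.30, limma adjusted p = 0.0245). Cdkn1a was the 1 member of 6 called between the types in Control, where 8.83% of all genes were called. The call was lost when either 4711-1, 4711-18, 4711-11 or 4716-10 was left out, with differences of 1.07, 0.94, 1.03 and 0.86 log2, and when only the Control libraries were fitted. In Control + CsA the ranges of the types overlapped and the difference was 0.85 log2 (limma adjusted p = 0.0659), which was called without 4716-14 (1.14 log2). After restoration the Type D and Type V levels overlapped, with differences of 0.44 log2 (95% interval -0.20 to 1.08) without and 0.13 log2 (-0.51 to 0.76) with CsA.

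Cdkn1b, which encodes p27, the inhibitor best known for its control by protein degradation through SKP2 and CKS1, was not called in any comparison. It read 97.4, 147 and 114 TPM in the Type D Control lines and 102, 111 and 105 TPM after restoration, and 107, 106 and 74.8 TPM against 121, 91.6 and 73.0 TPM in Type V. The groups overlapped in both types, and the differences on restoration were -0.16 log2 (95% interval -0.64 to 0.33) in Type D and -0.02 log2 (-0.51 to 0.46) in Type V. With CsA the Type D lines read 124, 141 and 116 TPM before and 86.7, 86.9 and 92.3 TPM after restoration. These 2 groups did not overlap, but the difference of -0.51 log2 was not called (limma adjusted p = 0.201). In Type V with CsA it was -0.13 log2, from 124, 117 and 75.5 TPM to 134, 85.2 and 72.6 TPM. Line 4711-11 held the highest Type V value in each of the 4 conditions and 4716-14 the lowest.

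Cdkn1c, which encodes the imprinted inhibitor p57, was close to absent. Type D libraries read 0.145 to 0.490 TPM. Among Type V lines, 4711-11 read 1.29 TPM in Control, 0.945 in Control + CsA, 0.712 in Restored and 0.557 in Restored + CsA. The other Type V libraries stood at 0.288 TPM or less, and line 4716-14 was listed at 0 in both conditions with CsA. The gene did not pass the filter on low values. In the alternative fit without that filter, limma called it in 0 of 15 comparisons, with 0 at an unadjusted p under 0.05 and differences of -0.23 to 0.16 log2.

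Cdkn2a was the most abundant member before restoration and among the 621 most abundant genes of the table in every library. In Type D lines it read 920.0, 929 and 953 TPM in Control and 679, 521 and 722 TPM after restoration. In Type V lines it went from 676, 556 and 838 TPM to 432, 255 and 341 TPM. Each of the 6 lines read lower after restoration, and restored and control libraries did not overlap in either type. The fall was called in Type V, where the level fell by 1.02 log2 (SE 0.22, limma adjusted p = 0.00568), and the difference in Type D was -0.56 log2 (SE 0.22, limma adjusted p = 0.120). With CsA, Type V lines fell by 1.05 log2, from 633, 586 and 867 TPM to 434, 257 and 323 TPM (limma adjusted p = 0.00483). Type D lines differed by -0.51 log2, from 973, 939 and 1192 TPM to 864, 615 and 708 TPM (limma adjusted p = 0.183). Both Type V differences lie close to the threshold of 1. Without line 4716-10 they were -0.97 and -0.98 log2, without 4716-14 -0.88 and -0.87, and after quantile normalization -0.92 and -0.97, none of them called. They were also not called in a fit of the compared libraries alone.

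Type D lines held more Cdkn2a RNA than Type V lines in all 4 conditions, without overlap of the ranges. The 4 conditions use the same lines, so they are not independent of each other. The difference was 0.46 log2 in Control (limma adjusted p = 0.197), 0.59 in Control + CsA (limma adjusted p = 0.0879) and 0.92 in Restored (limma adjusted p = 0.0096, under the threshold of 1 log2). It was called in Restored + CsA, at 1.12 log2 (SE 0.22, limma adjusted p = 0.00252). That call was lost without 4711-1 (1.00 log2), without 4716-10 (0.95 log2) and with the compared libraries alone, and the difference in Restored was called without 4711-11 (1.10 log2) or 4711-18 (1.06 log2).

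Cdkn2b, which encodes the CDK4/6 inhibitor p15Ink4b and is known as a target of transforming growth factor beta, read 196, 145 and 184 TPM in the Type D Control lines and 338, 266 and 283 TPM after restoration. In the Type V lines it read 85.5, 134 and 255 TPM in Control and 81.9, 98.9 and 161 TPM after restoration. All 3 Type D lines stood higher after restoration, without overlap of the groups, while all 3 Type V lines stood lower, within overlapping groups. The differences were 0.76 log2 in Type D (SE 0.38, limma adjusted p = 0.234) and -0.39 log2 in Type V (SE 0.38, limma adjusted p = 0.650), neither of them called. With the cell line block they had adjusted p-values of 7.60e-05 and 0.0131 in limma, still under 1 log2 in size. With CsA, Type D lines read 246, 175 and 257 TPM before and 408, 271 and 336 TPM after restoration (0.58 log2). Type V lines with CsA read 86.3, 156 and 249.9 TPM before and 85.9, 108 and 181 TPM after (-0.34 log2).

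After restoration Type D lines held more Cdkn2b RNA than Type V lines, without overlap. The difference was 1.42 log2 in Restored (SE 0.38, limma adjusted p = 0.0178) and 1.48 log2 in Restored + CsA (SE 0.38, limma adjusted p = 0.0159), and both were called. In Control it was 0.28 log2 (95% interval -0.53 to 1.08) and in Control + CsA 0.57 log2 (-0.24 to 1.37), with overlapping ranges. The Restored call was lost without 4711-1 (1.32 log2), 4716-11 (1.45 log2) or 4716-10 (1.35 log2), and so was the Restored + CsA call (1.34, 1.48 and 1.41 log2). Line 4716-14 was the Type V line with the highest Cdkn2b in all 4 conditions. In Control it stood above every Type D line, and after restoration below every one.

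Cdkn2c, which encodes the CDK4/6 inhibitor p18Ink4c, read 62.5, 26.4 and 41.7 TPM in the Type D Control lines and 28.3, 11.5 and 22.1 TPM after restoration, and 115, 70.5 and 72.7 TPM against 68.1, 44.2 and 50.8 TPM in Type V. Each line read lower after restoration, but the Type D lines lay so far apart that the groups overlapped. The difference was -1.04 log2 in Type D (SE 0.42, limma adjusted p = 0.123) and -0.64 log2 in Type V (SE 0.42, limma adjusted p = 0.432). With the cell line block the Type D fall was called (SE 0.11, limma adjusted p = 1.92e-06). With CsA the lines of Type D went from 54.6, 17.9 and 36.4 TPM to 25.6, 11.6 and 22.4 TPM (-0.77 log2), and those of Type V from 114, 72.2 and 58.8 TPM to 56.8, 33.3 and 29.6 TPM. The Type V difference of -1.02 log2 was called only with the block (limma adjusted p = 0.177 without and 4.06e-06 with it).

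Type V lines held more Cdkn2c RNA than Type D lines in every condition, without overlap of the ranges, though the conditions share the same lines. The Type D minus Type V difference was -1.01 log2 in Control (limma adjusted p = 0.127), -1.22 in Control + CsA (limma adjusted p = 0.0590), -1.42 in Restored (SE 0.42, limma adjusted p = 0.0301) and -0.98 in Restored + CsA (limma adjusted p = 0.145). Of these, the difference in Restored was called. It was no longer called without 4711-18 (-1.07 log2), 4716-11 (-1.51), 4711-11 (-1.25) or 4716-14 (-1.45) or with the compared libraries alone, and the difference in Control + CsA was called without 4711-1 (-1.58).

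Cdkn2d, which encodes the CDK4/6 inhibitor p19Ink4d, a gene known to vary over the cell cycle, read 38.7, 38.5 and 41.8 TPM in the Type D Control lines and 14.9, 13.3 and 20.2 TPM after restoration. In Type V it read 56.5, 39.6 and 42.1 TPM in Control and 37.2, 20.8 and 31.3 TPM after restoration. Restored libraries lay below control libraries in both types, without overlap. In Type D the level fell by 1.27 log2 (SE 0.24, limma adjusted p = 0.00112), a call made under each alternative setting tried. In Type V the difference was -0.63 log2 (SE 0.24, limma adjusted p = 0.101). With CsA the Type D lines fell by 1.14 log2, from 32.0, 23.6 and 36.2 TPM to 13.7, 11.8 and 14.1 TPM (limma adjusted p = 0.00352). That call was lost without 4711-1 (-1.12 log2) or 4716-11 (-1.05 log2). Type V lines with CsA went from 50.1, 36.8 and 30.7 TPM to 26.8, 18.8 and 17.8 TPM, a difference of -0.85 log2 that passed the adjusted p (0.0297, limma) and not the threshold of 1. Type D minus Type V differences were -0.20 log2 in Control, -0.34 in Control + CsA, -0.83 in Restored (limma adjusted p = 0.0233, under 1 log2) and -0.62 in Restored + CsA. The one in Restored was called without 4716-10 (-1.06 log2).

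**Figure D2:**
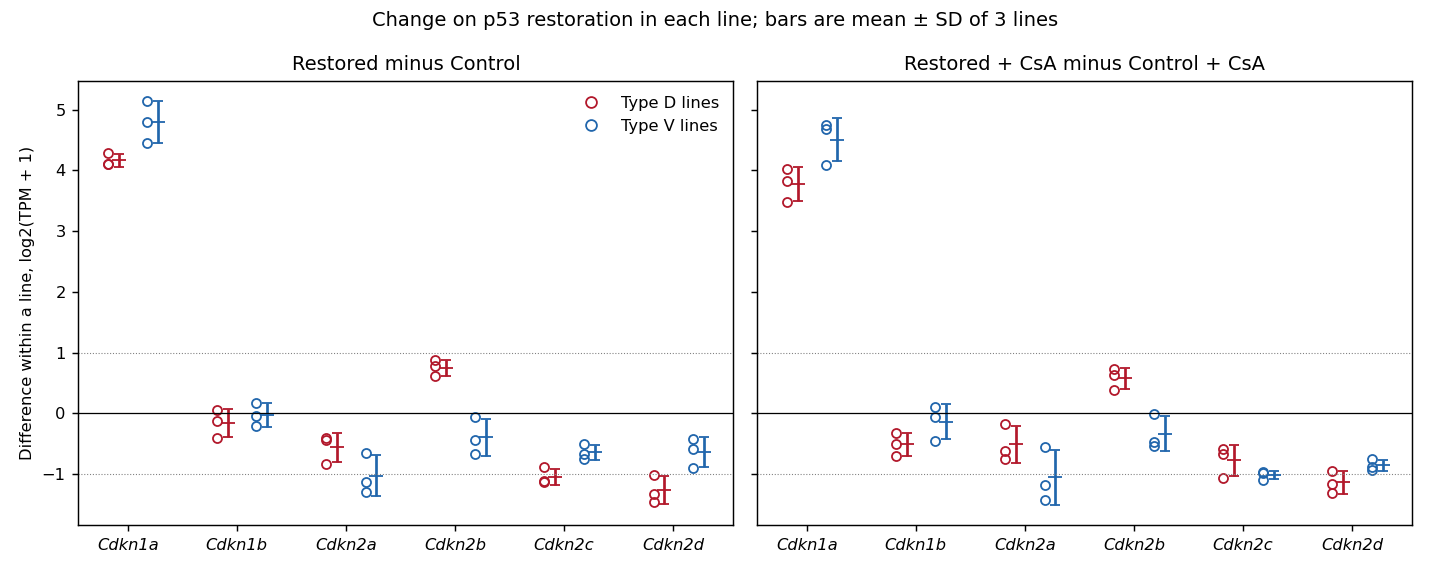
Difference in log2(TPM + 1) between restored and unrestored libraries of the same line (vertical axis) for the 6 tested members, without CsA at the left and with CsA at the right. Circles are single lines, red for Type D and blue for Type V, horizontal bars with whiskers are the mean ± SD of 3 lines, and dotted lines mark 1 and -1. Cdkn1a lies between 3.47 and 5.14 in all lines, and Cdkn2b lies above 0 in the Type D lines and below 0 in the Type V lines.

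Between the types, 2 of 6 members were called in Restored, namely Cdkn2b and Cdkn2c (9.44% of all genes were called), and 2 of 6 in Restored + CsA, namely Cdkn2a and Cdkn2b (7.82%). In Control + CsA 0 of 6 were called by limma (9.88% of all genes), with 3 of 6 at an unadjusted p under 0.05. The fibroblast sums given above also lay higher in Type V, without overlap, and the part of the cells or genes behind them was not tested.

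Whether the response to restoration itself differed between the types was tested as the Type D change minus the Type V change. Without CsA 0 of 6 members were called by limma (0.0284% of all genes were), with 1 at an unadjusted p under 0.05. That member was Cdkn2b, with a difference of 1.14 log2 (95% interval 0.0044 to 2.28, limma adjusted p = 1). With the cell line block it was the 1 member of 6 called (limma adjusted p = 0.00174, 2.44% of all genes called). The rise of Cdkn1a was 0.63 log2 smaller in Type D than in Type V by point estimate, with a 95% interval of the difference from -1.53 to 0.27 and an adjusted p of 1 in limma (0.0616 with the block). The interval for Cdkn2a was -0.20 to 1.13 log2, for Cdkn2c -1.66 to 0.85 and for Cdkn2d -1.33 to 0.07. Without the block these intervals leave room for differences of about 1 log2 for several members. With it they were narrower, at -1.03 to -0.23 log2 for Cdkn1a and 0.0078 to 0.92 for Cdkn2a. For Cdkn2c the interval was then -0.73 to -0.08 and for Cdkn2d -1.02 to -0.25. In limma with the block 5 of 6 members had an unadjusted p under 0.05, and 1 of them passed the adjusted p. With CsA and without the block 0 of 6 were called by limma (0.0142% of all genes), with 0 at an unadjusted p under 0.05. With the block, 2 of 6 then passed the adjusted p at sizes under 1 log2, Cdkn2b at 0.91 (limma adjusted p = 0.00540) and Cdkn1a at -0.73 (limma adjusted p = 0.0358).

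The summed RNA of the 7 genes was 1421 ± 5.44 TPM (SD, n = 3) in Type D Control lines and 3071 ± 375 TPM after restoration, and 1130 ± 208 against 2105 ± 468 TPM in Type V. Its make-up turned over in the same comparison. INK4 genes gave 83.9% ± 2.93 of it in Type D Control and 86.5% ± 2.32 in Type V Control, and 32.3% ± 7.88 and 25.8% ± 0.76 after restoration. The share of Cdkn1a went from 7.66% ± 1.39 to 64.2% ± 8.18 in Type D and from 4.57% ± 0.69 to 69.6% ± 1.71 in Type V. The share of Cdkn2a went from 65.7% ± 1.10 to 21.3% ± 5.84 in Type D and from 60.9% ± 1.77 to 16.2% ± 1.20 in Type V. With CsA the restored share of Cdkn1a was 56.6% ± 10.2 in Type D and 69.8% ± 1.83 in Type V. These shares are descriptions of RNA and follow from the levels above, since the rise of Cdkn1a alone lowers the share of each other gene. The INK4 share counts the whole Cdkn2a value, so any p19Arf RNA is part of it.

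**Figure D3:**
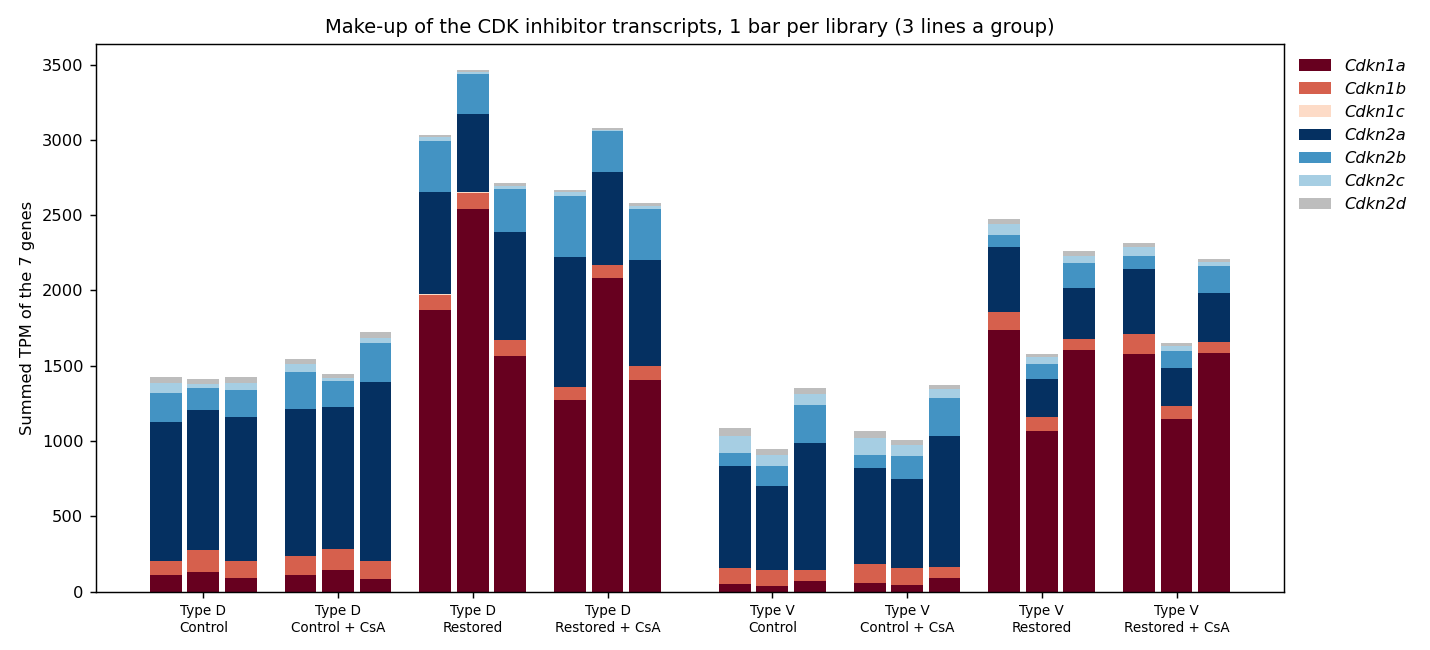
Summed TPM of the 7 CDK inhibitor genes (vertical axis) with 1 stacked bar per library and 3 lines a group, in the order given in the text. Red shades are CIP/KIP genes, and blue shades and grey are INK4 genes. Cdkn2a fills most of each bar without restored p53, and Cdkn1a is the largest single part of each bar with it.

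Cyclosporin A was tested with p53 off and with p53 restored. In Control + CsA against Control 0 of 6 members were called by limma in Type D and 0 of 6 in Type V, with 0 at an unadjusted p under 0.05 in each (0% of all genes were called in both comparisons, while 114 and 54 had an unadjusted p under 0.05). In Restored + CsA against Restored 0 of 6 were called by limma in Type D (0.0142% of all genes, 2 genes) and 0 of 6 in Type V (0% of all genes), again with 0 members at an unadjusted p under 0.05. The effect of CsA on the restored level did not differ by a call between the types for any of the 6 members in limma (0% of all genes, and 0 members at an unadjusted p under 0.05). With the block 0 members were called in these comparisons as well, with 3, 0, 2, 2 and, for the difference between the types, 1 of 6 at an unadjusted p under 0.05 in the order given.

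The CsA intervals below come from the fit without the block, unless the block is named, so the spread between lines widens them. For Cdkn1a in restored Type D lines the difference was -0.33 log2 (95% interval -0.97 to 0.30), with all 3 lines lower, by 0.56, 0.29 and 0.15 log2. In restored Type V lines it was -0.02 log2 (-0.65 to 0.62), with lines on both sides of 0. Cdkn1b stood lower with CsA in each restored Type D line (-0.25 log2, 95% interval -0.74 to 0.23), without overlap of the groups. Cdkn2d stood lower with CsA in every line and in both p53 states, by means of 0.38 and 0.25 log2 in Type D Control and Restored and 0.24 and 0.46 log2 in Type V. Cdkn2b stood higher with CsA in each Type D Control line (0.36 log2, 95% interval -0.45 to 1.16). Cdkn2c stood lower with CsA in each restored Type V line (-0.47 log2, -1.36 to 0.42) and each Type D Control line (-0.31 log2, -1.20 to 0.58). In restored Type D and in Type V Control its lines lay on both sides of 0. With the block the restored Type V difference of Cdkn2c had a limma adjusted p of 0.474. None of these differences had an adjusted p under 1 in limma without the block.

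**Figure D4:**
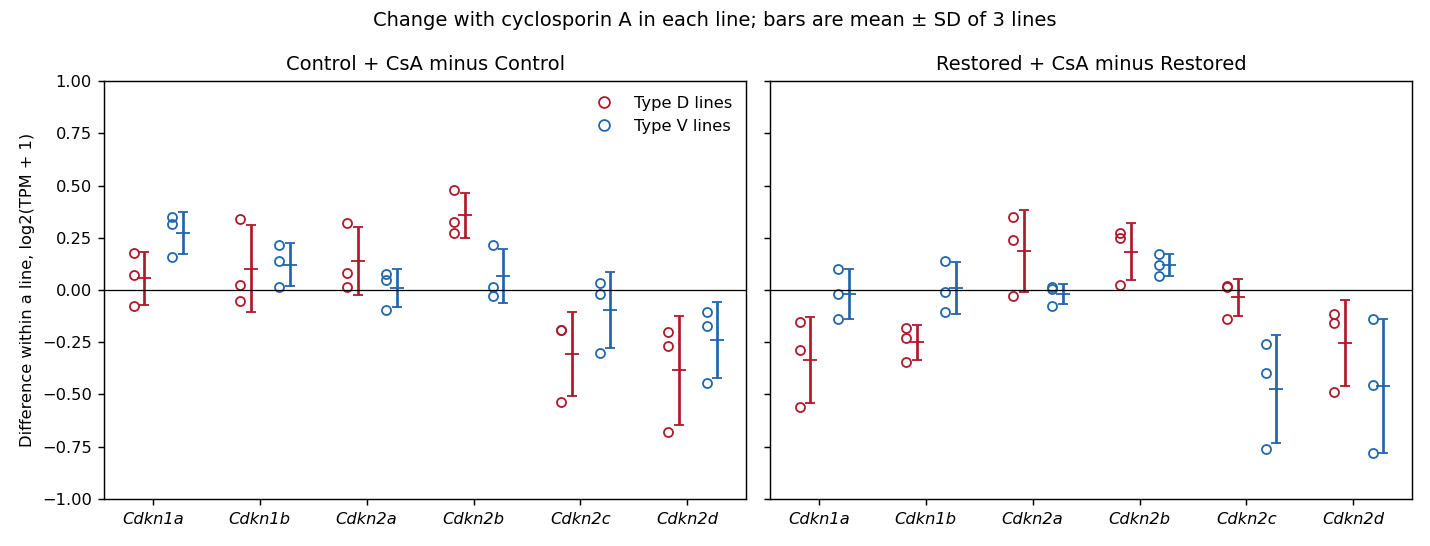
Difference in log2(TPM + 1) between libraries with and without CsA of the same line (vertical axis) for the 6 tested members, with p53 off at the left and restored at the right. Circles are single lines, red for Type D and blue for Type V, and bars with whiskers are the mean ± SD of 3 lines. All circles lie within 1 of 0, and those of Cdkn2d lie below 0 in both panels.

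Other genes of the pathway were read from lists of known genes, with changes on restoration without CsA. Of 8 other p53 targets, 8 rose in Type D and 7 in Type V, with median differences of 2.97 and 2.68 log2 (all tested genes had medians of 0.07 and 0.05). The largest in Type D were Mdm2, the ubiquitin ligase that degrades p53, at 4.37 log2 (limma adjusted p = 7.14e-13), Trp53inp1 at 3.64, Ccng1 at 3.41 and Sesn2 at 3.11. The rise of Cdkn1a was thus of the size of that of Mdm2 in Type D and larger than that of Mdm2 in Type V (4.80 against 3.36 log2) as point estimates. Plk2, the target not called in Type V and named after its value was seen, read 1.61 log2 there (limma adjusted p = 0.0802).

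Among 11 cyclins and CDKs that the inhibitors bind, 3 fell and 0 rose in each type. They were Ccna2 and Ccnb1, the cyclins of S phase and mitosis, by 3.51 and 3.48 log2 in Type D and 2.51 and 2.12 in Type V, and Cdk1 by 2.30 and 1.54 log2. The list medians were -0.02 and -0.14 log2. The INK4 partners Cdk4 and Cdk6 and the D-type cyclins were not among the called genes. Of 10 proliferation genes, 7 fell in each type, with medians of -3.04 log2 in Type D and -2.06 log2 in Type V. The largest differences in Type D were in Plk1 (-3.79), Ccnb2 (-3.47), Aurkb (-3.43) and Top2a (-3.19), all of them genes of mitosis or chromosome condensation. Mcm2, Mcm5 and Pcna, which act in DNA replication and were named after their values were seen, were the 3 not called in either type. Among the members, Cdkn2a, Cdkn2c and Cdkn2d were lower after restoration in every line and Cdkn1a was higher in every line. Cdkn2b was higher in each Type D line and lower in each Type V line, and Cdkn1b lay on both sides of 0 in each type. The part of cell cycle phase in the levels of the members was not tested.

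Of the Rb family, Rb1 rose in both types, by 1.60 log2 in Type D and 1.97 log2 in Type V (adjusted p-values of 0.00113 and 2.04e-04 in limma), and Rbl1 and Rbl2 were not called. Rb1 reads in these lines come from a deleted allele, at 7.36 to 17.3 TPM without and 21.1 to 68.8 TPM with restored p53, and a level of RNA does not show an intact transcript. Of 14 known regulators of the members, 1 fell in each type and 1 rose in Type V. The one that fell was Cks1b, the cofactor of SKP2 in the degradation of p27, by 1.58 log2 in Type D and 1.75 log2 in Type V (limma adjusted p = 3.01e-06 and 1.44e-06). The one that rose, named after its value was seen, was Foxo3, a transcription factor known to activate Cdkn1b, at 1.57 log2 in Type V (limma adjusted p = 0.0191) against 1.14 log2 in Type D (limma adjusted p = 0.0829). The list medians were 0.30 and 0.20 log2.

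The genes whose pattern over the 24 libraries was most like that of each member were found by Pearson's r of log2(TPM + 1) among 14103 other genes. The 24 points share 6 lines and 2 p53 states, so r is a description. For Cdkn1a they were Polk (r = 0.986), Prrg4 (0.984) and Hyal1 (0.979). For Cdkn2d they were Asf1b (0.947), Ccsap (0.936) and Ankle1 (0.935), and for Cdkn2c Nob1 (0.933), Armc6 (0.931) and Mns1 (0.922). Cdkn2a was closest to Prelid1 (0.927), Gpsm2 (0.912) and Elovl5 (0.908), and Cdkn2b to Cd53 (0.891), Dusp5 (0.891) and Itpr3 (0.878). The lowest values were those of Cdkn1b, with Esyt1 (0.835), Alcam (0.810) and Faah (0.806). Among the members themselves, Cdkn2c and Cdkn2d were the pair most alike (r = 0.835), and Cdkn1a and Cdkn2d the pair most opposed (r = -0.804). The neighbours Cdkn2a and Cdkn2b had r = 0.514.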

How the data were processed

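RNA from 24 cultures was sequenced, 1 library per line and condition, from stranded poly(A) libraries read from one end. The authors deposited TPM values, which sum to 1000000 in each library, so a rise in abundant genes lowers the others and depth is unknown. Their methods name both kallisto and HISAT2, and mm10 beside GRCm39, so the aligner and build behind the table are uncertain. The letters that tell restored from unrestored columns were read with the study's allele names. Some gene rows may mix transcripts: Cdkn2a joins 2 proteins, and Cdkn1a and Cdkn1c each overlap an annotated transcript of the opposite strand.

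Groups follow the labels. Values were analysed as log2(TPM + 1), a scale on which differences of low genes are understated. Genes reaching 1 TPM in 3 or more libraries (14104 of 25239) entered a fit of 8 group means (limma 3.58.1, eBayes with trend, R 4.3.3). All tests were two-sided, with Benjamini-Hochberg adjustment over the tested genes within each comparison and calls at an adjusted p under 0.05 with at least 1 log2. The labels tie 4 libraries to each line. With group means removed, r was 0.599 to 0.929 within a line (36 pairs) and -0.727 to 0.0438 between lines of the same type (96 pairs). The block could not be used between types. Columns were not duplicated. Scripts were tested on simulated data. Settings tried besides were 0.1 as pseudocount, a filter at 5 TPM or none, quantile and median-ratio scaling, the compared libraries alone, the block, and leaving out each line.

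The members and gene lists were chosen with earlier results of these data known, and 1 marker gene is not reported here. Named from the lists are at most 4 called genes with the largest difference in Type D Restored minus Control, and for each member the 3 genes of highest r. Plots used matplotlib 3.10.9 (Python 3.11.15).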

Additional observations from a re-analysis of the deposited data

Results flagged for a closer look

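The response of Cdkn2b to p53 restoration had opposite signs in the 2 types, in every line. Without CsA the Type D lines differed by 0.78, 0.87 and 0.61 log2 and the Type V lines by -0.06, -0.44 and -0.66 log2, with means of 0.76 and -0.39 log2 and a difference between the types of 1.14 log2. With CsA the means were 0.58 and -0.34 log2 and the difference was 0.91 log2, with line 4711-11 at -0.01 log2. The difference was not called by limma without the cell line block (adjusted p = 1 in both) and was called with it without CsA (limma adjusted p = 0.00174), while with CsA the block gave an adjusted p of 0.00540 at a size under 1 log2. Both values use different cultures of the same 6 lines. Line 4711-11 is within 0.1 log2 of no difference in both, so the sign in that line carries little weight.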

How the results depend on the processing

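Of 90 member differences tested, 13 were called, 5 of them under every alternative (the 4 rises of Cdkn1a on restoration and the fall of Cdkn2d in Type D without CsA), 8 were lost under at least 1, 7 were called only under an alternative, and 70 were called nowhere. No called difference of a member changed sign. In the main fit 0% to 9.88% of all tested genes were called in these comparisons. How often calls of all genes held under the alternatives was not counted. The number of members called on restoration in Type V went from 2 to 1, without and with CsA, after quantile normalization, with the compared groups alone, and over a range of 1 to 2 when a line was left out. After quantile normalization 5.31% of all genes were called there without CsA and 4.63% with it. In Type D with CsA the leave-one-out range was 1 to 2. Between the types, fitting only the compared groups gave 0 in place of 1 in Control, 1 in place of 2 in Restored and 1 in place of 2 in Restored + CsA. Leaving out a line gave 0 to 1 in Control, 0 to 1 in Control + CsA, 0 to 2 in Restored and 0 to 2 in Restored + CsA. The cell line block, in which the pairing of libraries enters, raised the count for the difference between types in the response from 0 to 1 (Cdkn2b), raised restoration counts from 2 to 3 in Type D and, with CsA, in Type V (Cdkn2c), and changed no other count of called members. Median-ratio scaling moved the median of all genes in Type D minus Type V Control from -0.12 to -0.02 log2. The causes of these changes were not tested, beyond the smaller number of libraries in the fits of the compared groups alone and without a line.

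The groups held 3 lines each, with TPM without counts and 1 culture per line and condition. Level differences near 1 log2 between the types, where the block could not be used, were not settled for Cdkn2a, Cdkn2b and Cdkn2c. On restoration without CsA the block gave Cdkn2c in Type D -1.04 log2 (interval -1.28 to -0.81, limma adjusted p = 1.92e-06). It gave Cdkn2a in Type V -1.02 log2 (-1.34 to -0.70, limma adjusted p = 7.77e-05). The Cdkn2b response then differed between types by 1.14 log2 (0.80 to 1.49, limma adjusted p = 0.00174). In that fit the directions were clear, but each interval crosses 1 log2 in size. Cdkn1c, at about 1 TPM or less, was tested only without the filter on low values.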
